A study of Oryza sativa with 4 samples.

Results

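A stretch of rice chromosome 10 was examined gene by gene in a wild type line and in the mutant line bta1-1. It runs from locus OS10G0137100 to locus OS10G0372700 in order of locus number. Its members are the loci in that range with at least 40 reads summed over the 4 libraries, which are 284 of the 558 loci in the range and 284 of the 23056 rice loci with that many reads in the whole table. The range was chosen by the counts themselves, because many of its genes differed between these same libraries, so the differences given here are a description and not a test. Loci are named by their identifiers. No member's identifier was paired with a gene name in the tables used (0 of 284 matched), so no function is given for a member.

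The libraries were made from rice (Oryza sativa, japonica) seedlings at 7 days of age, under a cycle of 14 h light and 10 h dark. The 2 groups were the line SN9816, labelled wild type, and the line bta1-1, labelled mutant, with 2 biological replicates each and no treatment labelled. The sources used here do not say how bta1-1 was made or from which line. A mutation in 1 gene and other differences between the lines therefore cannot be told apart. Errors given here measure only the spread between these libraries, which stand for each line with n = 2.

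The libraries held 15093108 to 20334851 counted reads. OS11G0490600, the published locus of LAZY1, the shoot gravitropism gene to which BTA1 is known to correspond, lies on chromosome 11 and not in the stretch. It had 767 and 461 reads for wild type versus 70 and 89 for bta1-1, and was thus lower in the mutant line (log2 fold change -2.93, SE 0.26). Replicates of a group were not alike in every respect. OS12G0291100, the published locus of a Rubisco small subunit and so a marker of green leaf, stood at 3059 and 5763 CPM (counts scaled to library size and composition) in wild type and at 3918 and 1239 CPM in bta1-1. The 3 Rubisco loci examined were all highest in wild type library 2 and lowest in bta1-1 library 2. Of 3 published root loci, 2 ran the opposite way between the replicates of each line, among them the nicotianamine synthase locus OS03G0307300 with 562 and 299.9 CPM in wild type and 326 and 486 CPM in bta1-1. Their part in the results on the stretch was not tested. Fewer cells of a type and less RNA per cell cannot be told apart in whole seedlings.

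Rice lines are known to differ in which genes they carry, and neighbouring genes are inherited together, so that a stretch taken from another parent changes many genes at once. Whether the stretch described here was inherited in that way was not tested. A read count is made by aligning reads to a reference genome and assigning them to annotated genes. A gene without reads may be silent, lacking from that line, or carried in a form too different from the reference for its reads to align. Counts per gene cannot tell these apart. A gene with like counts in both lines has reads aligned to it from both.

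Among the members, 36 (12.7%) had reads from essentially a single line, 25 from wild type alone and, conversely, 11 from bta1-1 alone. "Alone" here means that both libraries of a line had 20 reads or more while neither library of the other line had more than 3. Over all 24149 features with at least 40 reads, 0.489% met the rule for wild type and 0.215% that for bta1-1. The stretch held 1.23% of the loci with at least 40 reads, 25.3% of the 99 loci read in wild type alone and 26.2% of the 42 read in bta1-1 alone. With differences in level added, 51 members were lower and 20 higher in bta1-1 by the edgeR quasi-likelihood test at an adjusted p under 0.05, of 283 tested. The background was 2.64% lower and 2.77% higher over the 24396 genes tested, against 18.0% and 7.07% of the members. These comparisons are the ones that chose the stretch, and nothing is read from them.

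The members were sorted into classes by these rules. Beside the 36 read in one line alone, 26 others were called lower and 9 others higher. A further 74 stayed within 2-fold, in the sense that the 95% interval of their fold change lay inside that range. The remaining 139 were in none of these classes. Of the 25 members read in wild type alone 11 had 0 reads in both bta1-1 libraries, and of the 11 read in bta1-1 alone 6 had 0 reads in both wild type libraries.

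**Figure D1:**
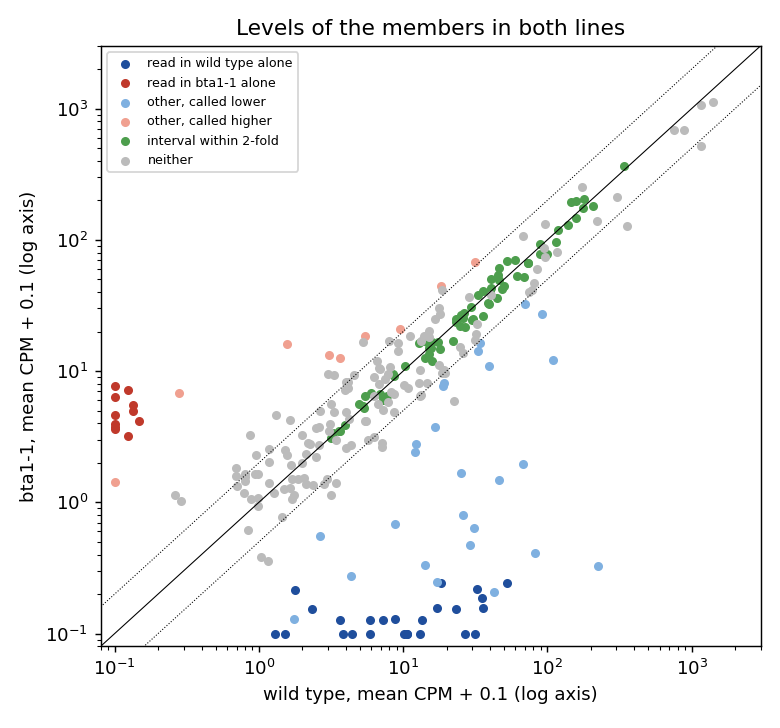
Mean level in wild type (x axis) against that in bta1-1 (y axis) for the 284 members, both as CPM + 0.1 on log axes, with n = 2 libraries per line. The solid line marks equal levels and the dotted lines a 2-fold difference. The 25 members read in wild type alone lie along the bottom and the 11 read in bta1-1 alone along the left side, while the 74 within 2-fold follow the solid line.

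The limits of the stretch come from its choice, and the genes on either side show how the lines compared there. At the left limit the change between neighbours was abrupt. OS10G0137000, the last gene before it with at least 40 reads, had 120 and 77 reads for wild type versus 86 and 89 for bta1-1. The 4 genes before that one were also read in both lines, and none of these 5 was called, with log2 fold changes of -0.18 to 0.59. The next gene, the first member OS10G0137100, had 0 and 0 reads for wild type versus 88 and 134 for bta1-1. OS10G0137300 beside it went the other way, with 1528 and 886 reads for wild type versus 31 and 34 for bta1-1. OS10G0137700 had 0 and 1 reads against 88 and 104, and OS10G0138100 had 0 and 0 against 102 and 54. The first 4 members thus differed between the lines one after the other, 3 read in bta1-1 alone and 1 far lower there. They were followed by 10 members of which none was called, and then by OS10G0142900, with 1 and 0 reads for wild type versus 120 and 127 for bta1-1.

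To the left of the stretch 92 genes had at least 40 reads, and none was read in one line alone. The nearest called genes on that side were 51 and 52 genes away, OS10G0117800 and OS10G0117000, which were read in all 4 libraries and were higher in bta1-1 by 1.93 and 1.59 (log2).

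**Figure D2:**
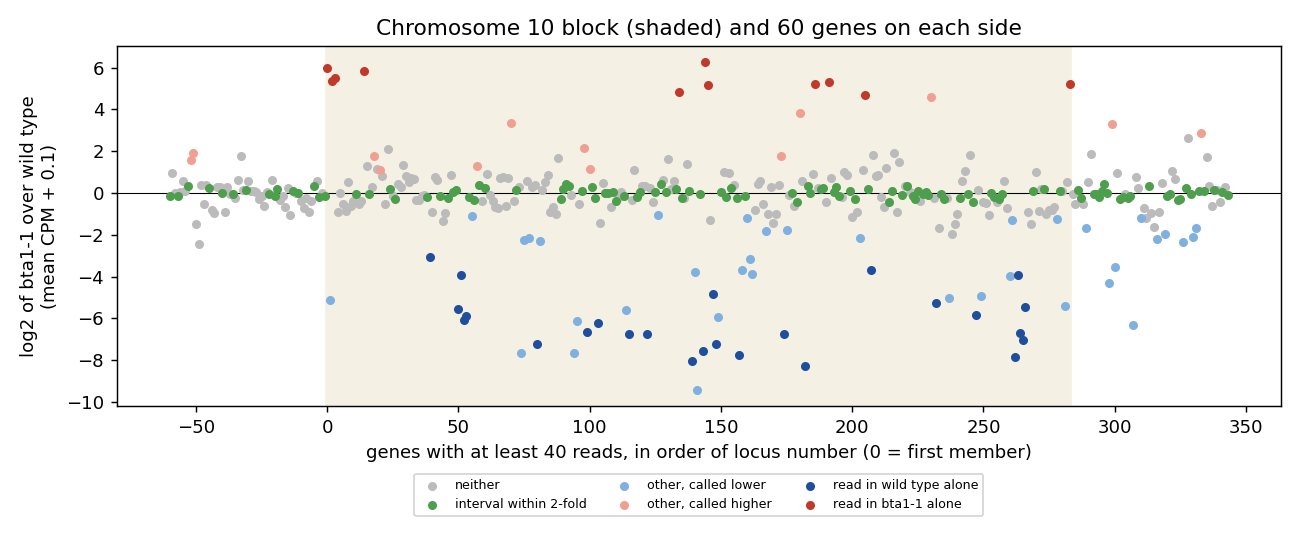
The log2 ratio of bta1-1 over wild type (mean CPM + 0.1 in each line, n = 2) for members and for 60 genes on each side, in order of locus number. Shading marks the stretch and colour the class. No called gene lies within 50 genes to the left, large differences start at the first member, and a thinner set goes on past the right limit.

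At the right limit differences also went on further out. The last member, OS10G0372700, had 0 and 1 reads for wild type versus 102 and 66 for bta1-1. The 5 genes after it were read in both lines and none was called, with log2 fold changes of -0.54 to 0.15. Further on, OS10G0379854 had 125 and 48 reads for wild type versus 1 and 4 for bta1-1, 15 genes past the limit, and OS10G0388500 had 459 and 292 against 2 and 4, 24 genes past it. A cluster of 4 genes read in wild type alone lay 89 to 95 genes past the limit. These were OS10G0409400, with 298 and 171 reads against 1 and 0, OS10G0409566, with 149 and 87 against 0 and 0, OS10G0410100, with 96 and 35 against 0 and 0, and OS10G0410900, with 88 and 75 against 0 and 0. On the right side 5 of 842 genes were read in wild type alone against 0 in bta1-1 alone, the fifth being OS10G0491100, 374 genes away, with 182 and 127 reads against 0 and 1. Genes like those of the stretch thus occurred on its right side as well, all of those that met the rule being read in wild type.

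In windows of 20 consecutive tested genes, 10% to 50% of the members of a window were called, with a median of 20% over 14 windows. The last 3 tested members, too few for a window, are not in these values. To the left, 5 windows, the last of 13 genes, gave 0% to 10%, and over all genes tested 5.41% were called. To the right, the first 5 windows gave 20% to 35%, and the remaining 38, the last of 15 genes, gave 0% to 15%. Calls thus stayed frequent for about 100 tested genes past the right limit, to OS10G0411750.

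**Figure D3:**
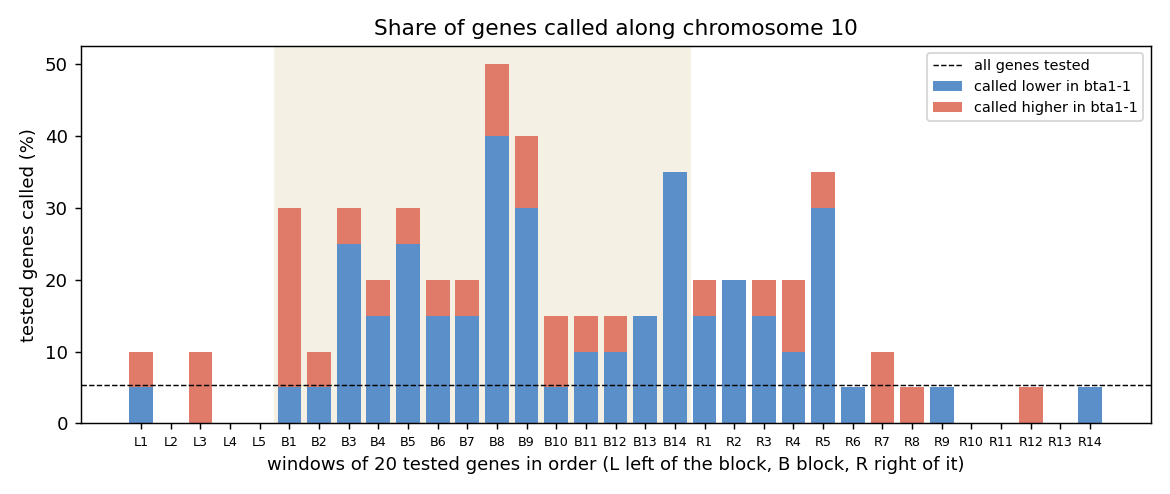
Share of genes called lower and higher in bta1-1 (y axis, percent) in windows of 20 tested genes in chromosome order, with the stretch shaded and only the first 14 windows on its right drawn. The last window on its left holds 13 genes. Bars reach 50% in the eighth window of the stretch and stay at 20% or more in the first 5 windows to its right, and the dashed line marks the 5.41% over all genes tested.

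The window with 50% called ran from OS10G0195175 to OS10G0205200 and held 4 members read in wild type alone plus 2 in bta1-1 alone. The highest share was 80% in windows of 10 genes and 35% in windows of 40. The window of 20 lay just after OS10G0195100, which had 580 and 366 reads for wild type versus 0 and 0 for bta1-1. A fold against 0 reads is a lower bound, taken here against 3 reads over the group. It takes the reads of the other line as exact and leaves out the spread between replicates. Such bounds are not on one scale with the exact intervals given below. By this bound OS10G0195100 was at least 316-fold higher in wild type. OS10G0195250, next to it but for 1 member, had 3549 and 4024 reads for wild type versus 4 and 4 for bta1-1, from 225 ± 77.9 to 0.228 ± 0.0164 CPM (SD, n = 2). Its log2 fold change was -9.91 (SE 0.48). Its bta1-1 reads put it just past the limit of 3 reads for a gene read in wild type alone.

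Close by, both directions met. OS10G0196000 had 786 and 471 reads for wild type versus 2 and 1 for bta1-1, a ratio of 419 (95% exact interval 143 to 2036, covering counting error only). Its log2 fold change was -8.58, and with 1 library left out it ran from -9.18 without bta1-1 library 1 to -8.09 without bta1-1 library 2. The next member, OS10G0196100, had 0 and 0 reads for wild type versus 121 and 145 for bta1-1, at least 88.6-fold higher there. OS10G0196400 after it had 0 and 0 against 66 and 58. The first 2 of these were the only neighbouring members in the stretch of which one was read in wild type alone and the other in bta1-1 alone. With 1 member between, OS10G0198100 with 101 and 33 reads against 0 and 1, OS10G0198300 with 301 and 454 against 0 and 2, and OS10G0198333 with 538 and 464 against 8 and 5 then followed one another, all higher in wild type.

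The longest run of neighbours that all differed held 7 members, OS10G0364700 to OS10G0368200, all higher in wild type. OS10G0365800, the third of them, had 745 and 509 reads against 1 and 1, a ratio of 627 (95% exact interval 173 to 5187). The other members of this run are named because of their place in it, after their values were seen. OS10G0365900 had 20 and 27 reads in wild type, OS10G0366400 had 208 and 157, OS10G0368100 had 246 and 204 and OS10G0368200 had 65 and 80, and all 4 had 0 and 0 in bta1-1. The first 2 members of the run kept reads in bta1-1: OS10G0364700 had 78 and 69 against 5 and 1, and OS10G0364900 had 380 and 274 against 110 and 157. A run of 4 members read in wild type alone lay at places 51 to 54 in order from the left limit. It went from OS10G0158000 with 136 and 72 reads against 0 and 1 to OS10G0159600 with 113 and 87 against 0 and 0. This run was likewise picked after its values were seen.

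Most differing members stood alone or in small groups. The 71 members called or read in one line alone formed 42 runs, with a median length of 1, and the 36 read in one line alone formed 25. Between them lay stretches of members that were not called, the longest being 22 members from OS10G0337500 to OS10G0346600 and 18 from OS10G0147250 to OS10G0151800. Both classes were found in each of 4 consecutive sets of 71 members, with 5, 6, 7 and 7 members read in wild type alone, and 4, 1, 5 and 1 for bta1-1. Locus numbers jump between OS10G0214400 and OS10G0315400. Before that jump 23 of 180 members were read in one line alone, and after it 13 of 104.

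The members read in wild type alone had 20 to 1212 reads in the first wild type library, with a median of 199, and 20 to 664 in the second, with a median of 157. Summed, they had 7326 and 5707 reads for wild type versus 15 and 19 for bta1-1. OS10G0204300 had the most, 1212 and 664 reads against 3 and 2, from 52.2 ± 8.4 to 0.144 ± 0.0505 CPM (SD, n = 2). OS10G0317300 had 571 and 509 reads against 0 and 0, at least 360.3-fold higher in wild type, which was the highest such bound in the stretch. That the lines do not overlap in this class is fixed by its rule.

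Other members of this class were read at different levels. OS10G0166300 had 425 and 635 reads against 3 and 1, and OS10G0180800 had 393 and 249 against 2 and 3. OS10G0185200 had 323 and 267 reads against 1 and 1, and with 309 bases it was the shortest gene of the class. Per length it stood at 51.4 and 57.2 FPKM (fragments per kilobase of gene, scaled to library size) in wild type and 0.187 and 0.186 in bta1-1. OS10G0212100 had 296 and 180 reads against 0 and 1. The lowest member to meet the rule was OS10G0336600, with 21 and 20 reads against 0 and 0. At that depth the bound is only 13.7-fold. OS10G0153900 also met the rule but kept some reads in bta1-1, and its ratio of 14.5 was the smallest that could be formed in this class.

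The members read in bta1-1 alone were fewer. They had 24 to 121 reads in the first bta1-1 library, with a median of 88, and 54 to 145 in the second, with a median of 66. Summed, they had 935 and 956 reads in bta1-1 and 4 and 2 in wild type. OS10G0196100 had the most, at 7.54 ± 0.423 CPM (SD, n = 2), and OS10G0142900 stood at 7.02 ± 0.223 CPM. OS10G0191201 had 2 and 0 reads for wild type versus 86 and 56 for bta1-1, a ratio of 71.0 (95% exact interval 19.3 to 592). Both of those wild type reads came from library 1, so that without it no ratio can be formed, and without library 2 the log2 fold change was 5.32 against 6.02 with all libraries. OS10G0320001 had 0 and 0 against 64 and 63, and OS10G0322600 had 0 and 0 against 74 and 60, at least 42.3-fold and 44.6-fold higher in bta1-1. Here too the rule keeps the lines apart. OS10G0335000, named for its spread, had 24 and 89 reads in bta1-1 and 1 and 0 in wild type.

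**Figure D4:**
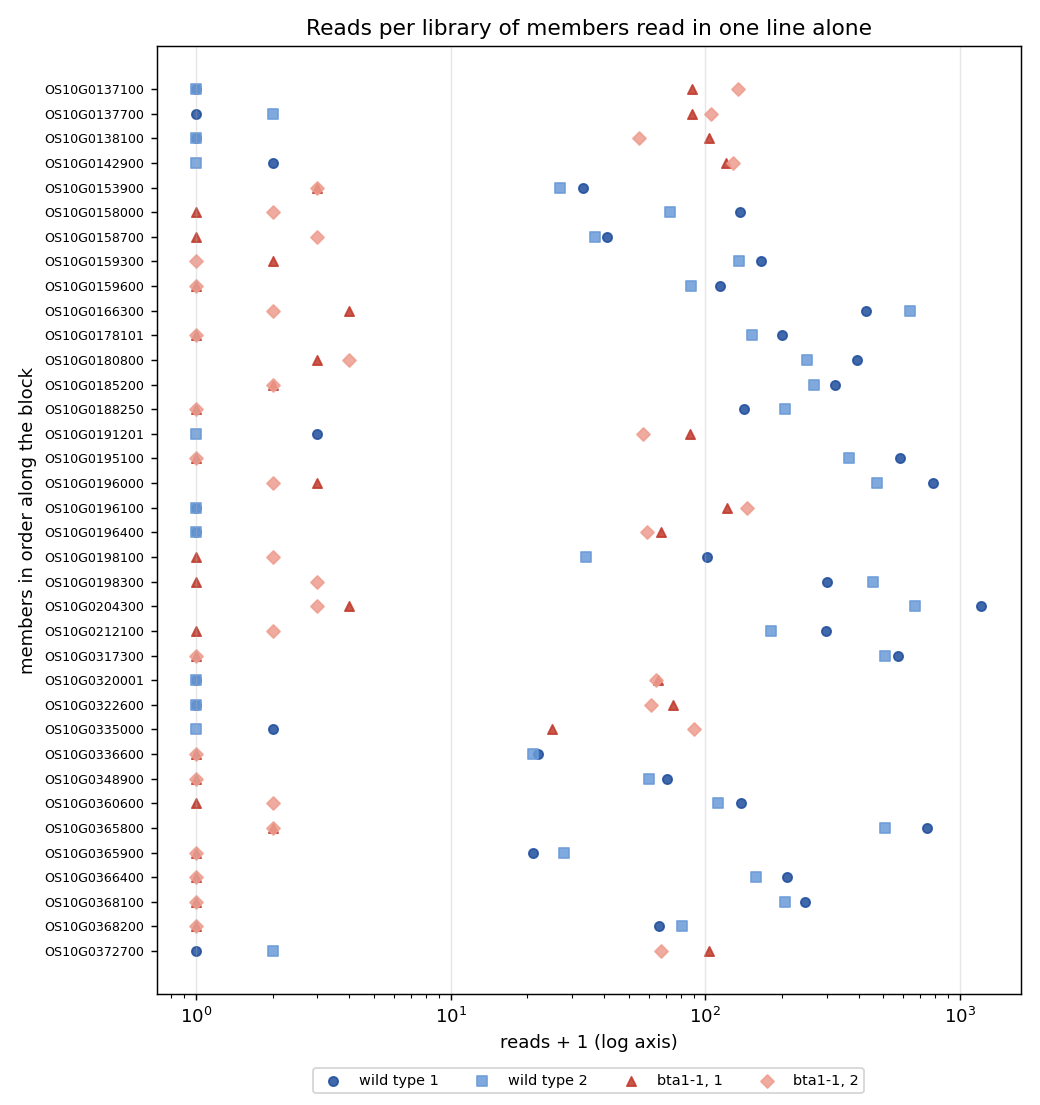
Reads + 1 per library (x axis, log) for the 36 members read in one line alone, in order along the stretch (y axis). Each marker is 1 library, and a marker at 1 stands for 0 reads. The rule sets the markers of the 2 lines apart in each row, with at most 3 reads on the low side and at least 20 on the high side.

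By median the members read in wild type alone stood at 7.49 FPKM in wild type, and those read in bta1-1 alone at 5.53 FPKM in bta1-1. The 74 members within 2-fold had a median of 16.4 FPKM in wild type, and all genes tested had 8.51. Gene length, found by dividing counts by FPKM, had a median of 1298 bases for members read in wild type alone, 782 bases for those read in bta1-1 alone and 1647 bases for those within 2-fold, against 1460 bases over all genes tested. These medians carry no test, since the rule of 20 reads and the interval of 2-fold both depend on depth.

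Another 26 members were called lower in bta1-1 without meeting the rule for one line alone. Of these, 15 were lower by 8-fold or more, with log2 fold changes of -9.91 to -3.18, and 11 by less, from -2.46 to -1.08. In the group of 15, the level in bta1-1 was 0.101% to 11.1% of that in wild type. The 2 lines did not overlap in any of the 26, which largely follows from the call itself with n = 2 libraries per line, so nothing is read from it.

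Some of these missed the rule by few reads. OS10G0172600 had 1551 and 1269 reads against 4 and 7, going from 81.4 ± 9.91 to 0.309 ± 0.0983 CPM (mean ± SD of 2 libraries) at a log2 fold change of -8.00 (SE 0.36). OS10G0163250 had 629 and 791 against 0 and 4, and OS10G0173000, which follows OS10G0172600 directly, had 384 and 225 against 4 and 1. Others kept more reads in both mutant libraries. OS10G0185100 had 561 and 506 reads against 10 and 9, and its neighbour OS10G0185200 was the member read in wild type alone described above. OS10G0361000 had 909 and 686 against 19 and 30, going from 45.7 ± 2.96 to 1.38 ± 0.343 CPM (mean ± SD of 2 libraries) at a log2 fold change of -5.04 (SE 0.30). OS10G0137300, at the left limit, had a log2 fold change of -5.19 (SE 0.28) and kept 2.73% of its wild type level. Low counts in bta1-1 thus lay on both sides of the limit of the rule. OS10G0205700, singled out as the member of the 15 with the smallest difference, had 1490 and 2083 reads against 308 and 102.

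Called higher without meeting the rule were 9 members, 3 of them by 8-fold or more. OS10G0315400 had 0 and 0 reads for wild type versus 16 and 31 for bta1-1, and so missed the minimum of 20 in 1 library. It was at least 15.7-fold higher in bta1-1. OS10G0347000 had 6 and 1 reads against 67 and 175, and OS10G0162842 had 48 and 9 against 152 and 418. For these last 2 the replicates of bta1-1 were 2 to 3 times apart in reads, and those of wild type were further apart. The log2 fold change of OS10G0347000 was 5.07, and 6.44 without wild type library 1, while leaving out bta1-1 library 2 gave 4.36. That of OS10G0162842 was 3.37, and 4.63 without wild type library 1, 2.78 with wild type library 2 left out and 2.61 with bta1-1 library 2 left out. The other 6 differed less, with log2 fold changes of 1.11 to 2.17. OS10G0147200 had 748 and 382 reads for wild type versus 1160 and 1220 for bta1-1, going from 31.3 ± 6.56 to 67.7 ± 2.45 CPM (mean ± SD of 2 libraries) at a log2 fold change of 1.11 (SE 0.24). OS10G0210500 rose from 3.57 ± 0.716 to 12.5 ± 0.588 CPM, with a log2 fold change of 1.80 (SE 0.32). OS10G0177400 had 60 and 43 reads against 136 and 340, OS10G0146200 had 96 and 86 against 232 and 419, and OS10G0160100 had 333 and 292 against 616 and 955. The lines did not overlap in any of these 9, which again largely follows from their being called. The call was lost without wild type library 2 for OS10G0147200 (log2 0.92) and OS10G0210500 (1.61), with the replicate number as a block for OS10G0147200 (1.13), without wild type library 1 for OS10G0146200 (1.60) and OS10G0160100 (1.11), and without bta1-1 library 2 for OS10G0177400 (1.5). For OS10G0315400 it was lost on log2(FPKM + 1), where the difference was 0.46. OS10G0178200, also called higher, was not among the refits examined.

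Among these same neighbours, 74 members stayed within 2-fold by their 95% interval, 26.1% of those tested against 41.5% of all genes tested. The lines overlapped in 48 of them, but the share over all genes was not taken, so nothing is read from that number. The log2 fold changes of the 74 ran from -0.46 to 0.42, 39 below 0 and 35 above. The count was 38 without wild type library 1, 41 without wild type library 2, 52 without bta1-1 library 1 and 49 without bta1-1 library 2. The most abundant was OS10G0371000, with 5610 and 5905 reads for wild type versus 5276 and 7554 for bta1-1 (340.4 ± 101 and 362 ± 65.5 CPM, SD, n = 2). Its log2 fold change was 0.09 with a 95% interval of -0.65 to 0.82, and turned to -0.19 without wild type library 1 and to -0.08 when bta1-1 library 2 was left out. It lies between members that differed: OS10G0371200, 2 places further on, had 249 and 235 reads against 5 and 3.

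Members within 2-fold were also found directly beside members read in one line alone. OS10G0317900 had 3695 and 2013 reads against 2712 and 4293, with an interval of -0.35 to 0.97, while OS10G0317300 just before it had 0 reads in bta1-1. OS10G0180000 had 2654 and 1452 against 1418 and 1978, with an interval of -0.84 to 0.33, and it directly precedes OS10G0180800. Others of this class had no such direct neighbour. Among them, OS10G0213800 had 3133 and 2917 reads against 3117 and 2999, with an interval of -0.64 to 0.60. OS10G0182000, also without one, had 2631 and 1590 against 1971 and 2236. At 119 ± 10.9 and 119 ± 2.07 CPM it had the smallest fold change of the named members. The lines overlapped in each of these 4 genes. The sign turned for OS10G0213800, from -0.02 to 0.21 without wild type library 2 and 0.11 when bta1-1 library 2 was left out, and for OS10G0182000, from 0.01 to -0.08 without wild type library 2.

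Other abundant members of this class had intervals of like width. OS10G0341700 had an interval of -0.72 to 0.54, OS10G0346600 one of -0.66 to 0.45 and OS10G0363300 one of -0.85 to 0.45. The log2 fold change turned from -0.09 to 0.19 without wild type library 1 for OS10G0341700, and from -0.20 to 0.12 without wild type library 2 for OS10G0363300. OS10G0320400, at 178 ± 4.26 and 206 ± 33.2 CPM, and OS10G0170200, at 145 ± 12.9 and 193 ± 19.5 CPM, did not overlap between the lines although their intervals ended at 0.81 and 0.99, inside 2-fold. Membership of this class therefore does not show that levels were equal.

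The 139 members in no class include 1 that was not tested, OS10G0209433, with 11 and 19 reads against 4 and 6. Of the 138 tested, 103 had an estimate under 2-fold with an interval that reached past 2-fold, and 35 had an estimate of 2-fold or more that was not called, 15 lower and 20 higher. Their median standard error was 0.42 (log2), against 0.25 in the class within 2-fold, and their median level in wild type was 5.41 CPM against 26.5 CPM. For most of them a change of 2-fold could not be told from none at this depth and replication.

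Some members of this last group were abundant and varied between replicates, and were picked after their values were seen. OS10G0150400, OS10G0150600, OS10G0150700 and OS10G0150800 follow one another. In wild type libraries 1 and 2 they had 16343 and 28848, 10631 and 18137, 9897 and 14762, and 14622 and 23082 reads in that order. In bta1-1 they had 18698 and 20735, 11372 and 13012, 10806 and 13418, and 16550 and 21067. All 4 were highest in wild type library 2, as the Rubisco loci were. Unlike those loci, they were lowest in wild type library 1 and not in bta1-1 library 2. Their intervals included 0. OS10G0356000 had 3047 and 8178 reads for wild type versus 3111 and 1227 for bta1-1, and OS10G0355800 had 107 and 571 against 156 and 41, and both shared with the Rubisco loci the highest CPM in wild type library 2 and the lowest in bta1-1 library 2. OS10G0330000 had 21616 and 18152 reads against 9645 and 8482, a log2 fold change of -1.15 (SE 0.33) that was not called.

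Replicates of one line differed by a median of 0.32 (log2, either direction) in wild type and 0.29 in bta1-1 over the 284 members, and by 0.30 and 0.31 over all genes tested, members included. For the 36 read in one line alone, the limit of 3 reads keeps the replicates of the low line together. The difference between lines had a median size of 0.64 (log2) over the members tested and 0.32 over all genes tested, and these 2 values belong to the contrast that chose the stretch.

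All members together took 1.10% and 1.48% of the reads counted for wild type, and 0.980% and 1.12% of those for bta1-1. The members read in wild type alone took 0.0360% and 0.0378% of the wild type reads, and the 26 other members called lower took 0.0962% and 0.115% in wild type against 0.0148% and 0.0147% in bta1-1. The 74 within 2-fold took 0.357% and 0.347% in wild type and 0.331% and 0.399% in bta1-1. The members in no class held the largest part of the members' reads in each library.

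The remaining 274 loci of the range had under 40 reads, 161 of them none in any library. Just inside the minimum were OS10G0209433 and OS10G0359200, each with 40 reads in total, the latter with 5 and 2 for wild type versus 10 and 23 for bta1-1. Just outside were OS10G0167200, with 17 and 4 against 1 and 14, and OS10G0181333, with 23 and 3 against 8 and 2. Among the 113 loci with 1 to 39 reads, 1 had at least 5 reads in each wild type library and 0 in both of bta1-1, and 0 had the reverse.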

How the data were processed

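Transcripts of 4 seedling libraries were measured by RNA sequencing. The authors deposited raw whole-number read counts for each gene, and a second table of FPKM that the authors had scaled by gene length and depth. Dividing 1 table by the other gave the same gene length, within 0.5 base, in 100% of 123342 values. The submitters' processing notes name IRGSP-1.0 as the build and list TopHat2 2.0.12, Bowtie2 2.2.3 and HTSeq 0.6.1 without their roles. The sources used here do not give the strand setting or the annotation release. Overlapping or antisense genes therefore cannot be told apart, and near-identical copies are uncertain. No genome or annotation of that build was used, so order rests on locus numbers and no coordinates are given.

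All 91960 features entered one fit with edgeR 4.0.16 in R 4.3.3 (TMM, filterByExpr with a minimum count of 10 and minimum total of 15, robust quasi-likelihood, line as the only term, two-sided p-values adjusted by Benjamini-Hochberg over 24396 genes, called at 0.05). Standard errors were derived from each log2 fold change and its F statistic. CPM are TMM-scaled. Alternatives used DESeq2 1.42.0, limma 3.58.1 and the settings below. Bounds use 3 reads over a group, and intervals of ratios are exact binomial (95%), covering counting error only. The fit was also run on counts simulated from its own means and spreads. That run did not mimic genes read in one line alone or the replicate differences of the Rubisco loci, so nothing is read from it here.

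Named members are the first and last, up to 10 per direction read in one line alone with most reads, up to 8 others called per direction with the smallest p, the 10 most abundant within 2-fold, and the edges. Any other locus named, and the limit of 8-fold, were chosen after values were seen. The members and lists were chosen with earlier results of these data known.

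Replicates were distinct libraries (chi-square of their counts 26.4 per degree of freedom in wild type and 36.5 in bta1-1). Nothing in the labels ties equal replicate numbers to a shared batch.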

Additional observations from a re-analysis of the deposited data

How the results depend on the processing

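The counts of members called lower and higher, 51 and 20, stayed within 1.5 times under DESeq2 (54 and 25), DESeq2 size factors in edgeR, no filter on low counts (66 and 30), limma on log2(FPKM + 1) and on log2(FPKM + 0.1), and minimums of 20 and 100 reads. Leaving out 1 library gave 47 to 51 lower and 18 to 25 higher. The 25 and 11 members read in one line alone became 19 to 28 and 9 to 12 under other read limits, FPKM limits and left-out libraries. The 74 members within 2-fold became 38 to 52 without 1 library: 38 without wild type library 1, 41 without wild type library 2, 52 without bta1-1 library 1 and 49 without bta1-1 library 2, where fewer samples widen the intervals. With the replicate number as a block 45 members were lower, 18 higher and 50 within 2-fold. Deviations of same-numbered libraries correlated at -0.43 across genes, and with crossed pairing, added after seeing the data, 76 were lower, 37 higher and 109 within 2-fold. The shares over all genes were not taken for the settings other than the main one. Changes in these member counts are therefore not read as results about the stretch. The highest share called in a window, 50% with 20 genes, was 80% with 10 genes and 35% with 40, since smaller windows hold fewer genes. Among 506 refits of named members 9 changed direction, all of 5 members within 2-fold that were never called: without 1 library, log2 fold changes ran from -0.19 to 0.43 for OS10G0371000, -0.46 to 0.12 for OS10G0363300, -0.33 to 0.19 for OS10G0341700, -0.22 to 0.21 for OS10G0213800 and -0.0801 to 0.106 for OS10G0182000, and OS10G0213800 stood at 0.0303 on log2(FPKM + 0.1) and 0.0300 on log2(FPKM + 1). Another 7 refits of 6 genes, all among those called higher, lost the call: OS10G0315400 on log2(FPKM + 1), OS10G0147200 with the block and without wild type library 2, OS10G0210500 without wild type library 2, OS10G0146200 and OS10G0160100 without wild type library 1, and OS10G0177400 without bta1-1 library 2. Of the others called, only the 8 per direction with the smallest p were among these refits. Of the members read in one line alone, only up to 10 per direction were. None of the 11 lower by under 8-fold (log2 -2.46 to -1.08) was among them, nor was OS10G0178200, called higher. The refits do not show whether the calls of these members hold. Depth limits members with few reads, whose bounds are low.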
